A study of Drosophila melanogaster and Drosophila simulans and Drosophila yakuba with 24 samples.

Results

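Transcripts of transposable elements and other repeats were compared between fat bodies of piwi2/piwi2 flies, which are homozygous mutant for piwi, and piwi2/CyO flies, which are heterozygous for the same allele. The comparison used 6 of the 24 libraries in the study, 3 per genotype, and took every named repeat in the deposited table of repeat counts (233 entries), leaving out a further entry named residual that holds reads outside the repeats. All flies were Drosophila melanogaster females kept for 10 days after eclosion. Fat was scraped from the inner abdominal wall of pooled flies once ovaries and gut had been removed, and total RNA depleted of ribosomal RNA was sequenced. The 3 libraries of a genotype are described in the methods as biologically independent. CyO is a balancer, a rearranged second chromosome with a dominant marker, and only the heterozygous flies carried it, so the loss of piwi and the absence of CyO cannot be told apart. The table holds no genes, and neither the piwi transcript nor fat body or ovary markers could be checked on it. In these dissected tissue samples, fewer cells that express an element and less RNA per cell cannot be told apart.

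Piwi is a nuclear Argonaute protein loaded with piRNAs, small RNAs antisense to transposable elements, and in the ovary it directs silencing of chromatin at their insertions. LTR retrotransposons (the Gypsy, Pao and Copia families) carry an internal region with their genes between a pair of identical long terminal repeats, where transcription starts and ends, and the table counts internal (_I) and terminal (_LTR) sequences as separate entries. LINEs (Jockey, I, R1 and R2 families) lack terminal repeats, and some insert only at set places, R1 and R2 in the genes for the large ribosomal RNA and HeT-A, TAHRE and TART at chromosome ends.

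Repeats took 401540 to 941049 counts per library. Of all counted reads, they made up 4.74, 6.30 and 5.78% in piwi2/CyO and 6.01, 3.78 and 4.06% in piwi2/piwi2. The genotypes overlapped, and the means of 5.61% ± 0.797 and 4.62% ± 1.21 (SD, n = 3) gave p = 0.3 in the 2-sided exact permutation test. With 20 ways of splitting 6 libraries, that test cannot go below 0.1. The entries with the most counts were Gypsy_I with 31.6% of all repeat counts over the 6 libraries, Copia_I with 6.74%, ROO_I with 3.95%, DOC with 3.89% and R1_DM with 3.47%.

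Of the 233 entries, 215 had enough counts to be tested and 18 did not, 3 of those being at 0 in every library. After loss of piwi, 11 repeats were higher (5.12% of those tested) and 12 were lower (5.58%) by edgeR's quasi-likelihood test with TMM scaling among repeats and a Benjamini-Hochberg adjusted p under 0.05. The count in either direction was 23 (10.7%), and at an unadjusted p under 0.05 it was 49. All 23 had libraries that did not overlap between genotypes, which was also true of 62 of all 215 (28.8%), with 34 higher (15.8%) and 28 lower (13.0%). The median log2 fold change was -0.01, with 105 repeats above 0 (48.8%). The higher repeats were R2_DM, R1_DM, HETA, TAHRE, I_DM, MAX_I, MAX_LTR, ROOA_I, Gypsy1-I_DM, Gypsy6_LTR and Copia1-I_DM. The lower ones were DM1731_I, DM1731_LTR, BLASTOPIA_I, BLASTOPIA_LTR, TRANSPAC_I, TRANSPAC_LTR, Gypsy10_I, Gypsy2-LTR_DM, DOC6_DM, BS, HOBO and DMRPR.

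The split between directions depended on the scaling. Library size alone, without TMM, gave 17 higher and 10 lower and moved the median of all repeats to 0.19, upper quartile factors gave 19 and 12 with a median of 0.12, and scaling to all reads with residual gave 1 higher, which was R2_DM, and 7 lower with a median of -0.13. Library size alone lost the calls of Copia1-I_DM, HOBO, Gypsy2-LTR_DM, Gypsy10_I, BS and DOC6_DM. Scaling to all reads retained only 6 of the 23, R2_DM, both DM1731 entries, BLASTOPIA_I, TRANSPAC_LTR and DMRPR. None of the 23 changed sign in any of the 16 alternatives run, except that DMRPR has no value in the one restricted to the LTR, LINE, DNA and RC classes. The libraries mattered as well. Without piwi2/CyO replicate 1, 2 or 3 the test called 25, 18 and 7 repeats, and without piwi2/piwi2 replicate 1, 2 or 3 it called 11, 9 and 10. The calls that held in each of these 6 fits were 6 in number, namely R2_DM and MAX_LTR among the higher repeats and DM1731_I, DM1731_LTR, BLASTOPIA_I and Gypsy10_I among the lower. For each other called repeat, the libraries whose omission left the call standing are named where it is described.

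**Figure D1:**
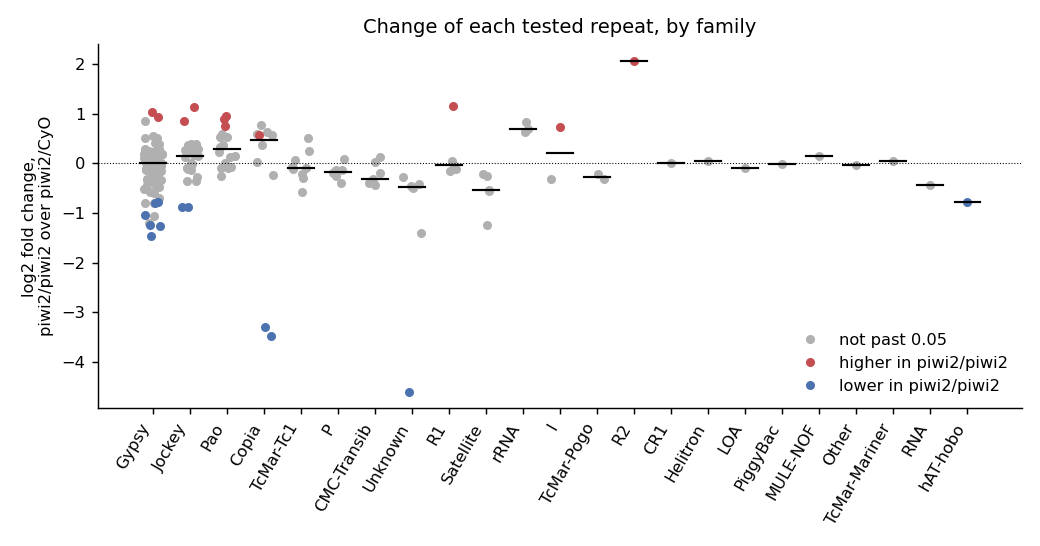
Log2 fold change of piwi2/piwi2 over piwi2/CyO for each of the 215 tested repeats (points, vertical axis), grouped by family, with a bar at each family's median. Red and blue points are the 11 higher and 12 lower repeats past the adjusted p of 0.05; Gypsy holds calls in both directions around a median of 0.00, and all 5 tested Satellite entries lie below 0.

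Summed by class, LTR elements fell as a share of repeat counts and LINEs rose in every library. The LTR class took 80.6, 74.1 and 82.3% of repeat counts in piwi2/CyO and 69.8, 68.4 and 72.5% in piwi2/piwi2. For LINEs the shares were 11.2, 15.4 and 10.4% against 21.1, 20.9 and 17.3%. Neither class overlapped between genotypes, and both reached the smallest p the design allows (exact permutation p = 0.1, adjusted 0.2 over 6 classes). Both overlapped as a share of all counted reads, residual included. Without the gypsy element in the total, LINEs stayed apart (18.8, 22.7 and 20.9% against 29.0, 25.7 and 22.9%) and the LTR class did not (67.3, 61.7 and 64.5% against 58.4, 61.0 and 63.6%). Of that LINE difference of 5.11 percentage points, the R1 family made up 2.86 and Jockey 0.567, and each of these 2 families overlapped between genotypes. With gypsy in the total, the R2 family went from a mean of 0.341% to 1.62% of repeat counts. LINEs without R1 and R2 were not tested. Among single entries the LTR class had 6 higher and 8 lower of 131 tested, and LINEs had 5 higher and 2 lower of 37. DNA transposons, which move as DNA, had 1 lower of 30, with 8 above 0, 22 below and a median log2 fold change of -0.15. Over all repeats, 48.8% were above 0 and the median was -0.01. The share of DNA transposons was 2.95% ± 0.502 and 3.35% ± 0.436 (SD, n = 3), with overlapping libraries. Without gypsy the DNA share went the other way, from a mean of 4.99% to 4.38%, without overlap (exact permutation p = 0.1).

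The fall of the LTR share lay in the Gypsy family. That family held 61.8, 56.8 and 68.8% of repeat counts in piwi2/CyO and 51.8, 45.9 and 50.0% in piwi2/piwi2, without overlap (p = 0.1 by exact permutation, adjusted 0.15 over 9 families). Within it, the gypsy element itself, an endogenous retrovirus known from ovarian follicle cells, took 40.5, 32.4 and 50.2% of repeat counts against 27.4, 18.9 and 24.6%. The other entries of the family together went from 21.3, 24.4 and 18.6% to 24.3, 27.0 and 25.4%, where the genotypes overlapped (exact permutation p = 0.2). When gypsy was taken out of the total, those other entries made up 35.8, 36.1 and 37.4% against 33.5, 33.3 and 33.7%.

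Jockey, Pao, R1 and TcMar-Tc1 and the ribosomal RNA entries each took a larger share in every piwi2/piwi2 library (exact permutation p = 0.1, adjusted 0.15 for each). Jockey went from 7.55% ± 1.16 to 10.2% ± 0.693, Pao from 7.04% ± 0.913 to 9.99% ± 0.920 and R1 from 2.68% ± 0.931 to 5.58% ± 1.70 (SD, n = 3). The shares of Copia (9.48% and 11.0%), Helitron (2.53% and 3.02%) and Satellite (1.51% and 1.14%) overlapped between genotypes. A share is tied to the others, and most of these shifts depended on gypsy. Without it in the total, the difference fell from 2.66 to 0.567 percentage points for Jockey and from 2.95 to 1.11 for Pao, and both families and R1 overlapped between genotypes. The sign turned for Copia, Helitron and TcMar-Tc1, Satellite separated downward, and ribosomal RNA stayed apart. Of all counted reads, the Gypsy, Jockey, Pao, R1 and TcMar-Tc1 shares overlapped, while ribosomal RNA was higher and Satellite lower in each mutant library.

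**Figure D2:**
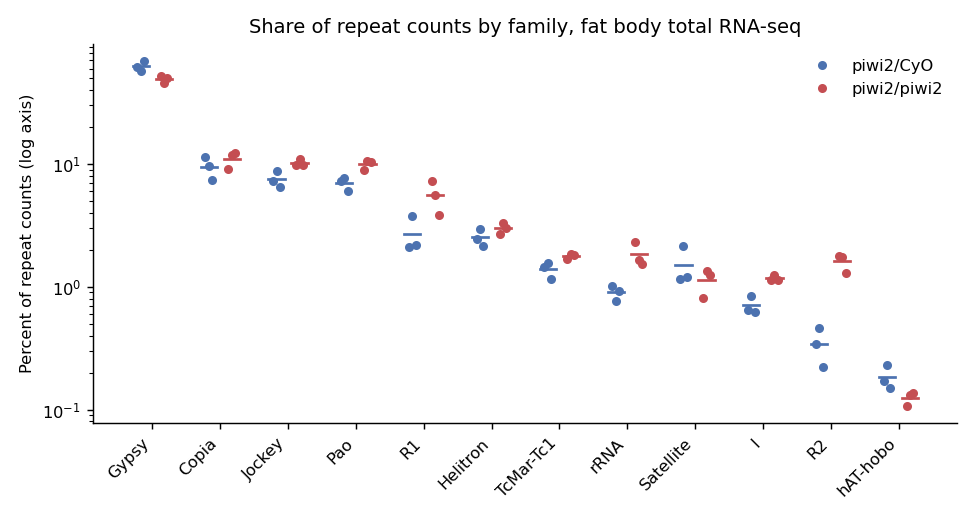
Share of repeat counts (percent, log axis) of the 9 families tested for share and of I, R2 and hAT-hobo, in each library of piwi2/CyO (blue) and piwi2/piwi2 (red), with a bar at the mean of 3 libraries. Gypsy is the largest family in all 6 libraries and sits lower in piwi2/piwi2, while R2 rises from a mean of 0.341% to 1.62%.

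Family totals were also tested as summed counts on the scale of the repeat test, where 4 of 23 families passed (17.4%), 3 higher (13.0%) and 1 lower (4.35%). R2 had a log2 fold change of 2.07 (SE 0.21, edgeR adjusted p = 1.86e-04), I of 0.52 (SE 0.12, adjusted p = 0.0172), R1 of 0.89 (SE 0.24, adjusted p = 0.0374) and hAT-hobo of -0.77 (SE 0.13, adjusted p = 0.00466). R2 and hAT-hobo are each a single entry. Both stayed past the threshold, adjusted over families, whichever library was left out. The one entry of hAT-hobo, HOBO, adjusted over all tested repeats instead, kept its call in 4 of these 6 fits. The I total was lost without piwi2/CyO replicate 3 and without piwi2/piwi2 replicate 2 or 3. R1 was retained only without piwi2/piwi2 replicate 3. Totals of Gypsy (-0.61, adjusted p = 0.155), Pao (0.27, adjusted p = 0.342), Jockey (0.22, adjusted p = 0.388) and Copia (-0.03, adjusted p = 0.969) did not pass in the edgeR fit, although Gypsy passed without piwi2/CyO replicate 2. With library size alone the calls were R1, R2, Pao and ribosomal RNA higher and Gypsy lower, with DESeq2 they also took in Pao and ribosomal RNA, higher, and Gypsy and Satellite, lower, and with all reads R2 alone passed.

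A family total often stood for 1 entry. Gypsy_I was 56.5% of the Gypsy family, Copia_I 66.7% of Copia, DOC 43.9% of Jockey, ROO_I 46.3% of Pao, R1_DM 82.3% of R1 and FB4_DM 59.2% of TcMar-Tc1. Counted by entry, the 105 tested Gypsy members were spread around no change, with 53 above 0, 52 below, 2 called higher and 6 lower, and their median was 0.00. Pao leaned upward, with 12 of 16 above 0 (48.8% over all repeats) and a median of 0.28. It had 3 called higher (5.12% over all repeats), from MAX and ROOA. None was lower in edgeR or DESeq2, also at an unadjusted p under 0.05. These 16 are internal and LTR entries of the same elements. Both entries were above 0 in DIVER, DIVER2, MAX and ROOA, and the signs differed in BATUMI, BEL, NINJA and ROO. Copia had 7 of 10 above 0 and a median of 0.47, yet 1 higher and 2 lower calls, the latter both from the element 1731. Jockey had 2 higher and 2 lower of 27 and a median of 0.15. R1, called as a total, had 2 of 5 entries above 0, 3 below, a median of -0.03 and 1 called higher, R1_DM. The I family, also called as a total, had 1 of 2 entries above 0, I_DM, which was called higher. TcMar-Tc1 took a larger share, yet 3 of its 10 tested entries were above 0 and 7 below, with a median of -0.09 and no calls. All 5 Satellite entries, which are tandem arrays and not mobile, were below 0 (median -0.54). Of these, 3 did not overlap, and over all repeats 13.0% were lower without overlap. None of the 5 passed in edgeR, where 1 was lower at an unadjusted p under 0.05, and DESeq2 called 1, DMSAT6, lower.

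R2 and R1, the LINEs of the ribosomal RNA genes, were both called higher, and R2 had the largest rise of all repeats tested. R2_DM had 4141, 3818 and 2780 TMM-scaled counts per 1000000 repeat counts (CPM) in piwi2/CyO and 17755, 15237 and 11983 in piwi2/piwi2. Every mutant library was far above every heterozygous one, and the fold was 4.19 (log2 2.07, SE 0.23, edgeR adjusted p = 0.00126). R1_DM had 18431, 22559 and 19496 CPM against 61888, 42287 and 30197, a log2 fold change of 1.15 (SE 0.28, adjusted p = 0.0368 in edgeR). The mutant libraries differed widely among themselves here, and the call held only without piwi2/piwi2 replicate 3, with log2 fold changes from 0.84 to 1.32 over the omissions. In counts per 1000000 of all reads, R1_DM overlapped between genotypes (717, 1722 and 897 against 3768, 1846 and 1326), and R2_DM did not (161, 291 and 128 against 1081, 665 and 526).

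The tested ribosomal RNA entries were 2 from Drosophila and a human one, LSU-rRNA_Hsa, with 7 to 33 counts per library. All 3 lay above 0 with libraries that did not overlap, and over all repeats 15.8% were higher without overlap. None of the 3 passed in edgeR, where 1 was higher at an unadjusted p under 0.05, and DESeq2 called 1. LSU-rRNA_Dme, the large subunit RNA that R1 and R2 interrupt, had a log2 fold change of 0.84 (SE 0.30, edgeR adjusted p = 0.125). Its level after depletion was 327, 332 and 333 reads per 1000000 of all reads in piwi2/CyO and 976, 433 and 433 in piwi2/piwi2, and piwi2/piwi2 replicate 1 stood apart. Set against these counts in the same library, R2_DM gave 0.493, 0.877 and 0.384 counts per large subunit count in piwi2/CyO and 1.11, 1.54 and 1.21 in piwi2/piwi2, still without overlap. R1_DM gave 2.19, 5.18 and 2.69 against 3.86, 4.27 and 3.06, which overlapped. What ribosomal RNA left after depletion contributed to either element was not tested.

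The telomeric elements, which extend chromosome ends in place of telomerase, did not move together. Of 4 tested entries 2 were called higher by edgeR, none was called lower and 2 were below 0. Over all repeats, 5.12% were called higher, 5.58% were called lower and 48.8% lay above 0. The telomeric median was 0.42 on the log2 scale beside -0.01 for all repeats. HETA, the non-autonomous element that makes up most of the array, had 3544, 3004 and 2762 CPM in piwi2/CyO and 4766, 9657 and 5972 in piwi2/piwi2 (log2 1.13, SE 0.27, edgeR adjusted p = 0.0358). TAHRE, a relative that encodes its own reverse transcriptase, had 1618, 1737 and 1458 against 2285, 3945 and 2461 CPM (log2 0.85, SE 0.22, adjusted p = 0.0476 in edgeR). In both, piwi2/piwi2 replicate 2 was the highest library and none overlapped. The HETA call stood only without piwi2/CyO replicate 1 or piwi2/piwi2 replicate 1 (log2 from 0.74 to 1.33 over the omissions), and that of TAHRE was lost under each omission (0.51 to 1.00). TART, which also encodes a reverse transcriptase, had 4678, 2940 and 3440 against 3027, 4392 and 3556 CPM, with overlap and a log2 fold change of -0.01 (SE 0.22) whose sign depended on the scaling, and TART_B1 had -0.35 (SE 0.22).

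The I element, a LINE that germline piRNAs repress and that causes hybrid dysgenesis when they are lacking, had 6115, 4789 and 5875 CPM in piwi2/CyO and 9688, 9274 and 8748 in piwi2/piwi2. The genotypes were well separated, with a log2 fold change of 0.72 (SE 0.16, edgeR adjusted p = 0.0278), and the call stood only without piwi2/CyO replicate 1 (log2 from 0.59 to 0.79 over the omissions). Other LINEs went down. BS, of the Jockey family, had 3941, 3199 and 3538 CPM against 2309, 1905 and 1607 (log2 -0.88, SE 0.18, adjusted p = 0.0229 in edgeR). DOC6_DM, of the same family, had 1843, 1429 and 1758 against 960, 969 and 811 CPM (log2 -0.88, SE 0.15, edgeR adjusted p = 0.0108). No library overlapped in either. The BS call was lost without piwi2/CyO replicate 3 or piwi2/piwi2 replicate 2 or 3, and that of DOC6_DM without piwi2/CyO replicate 3. DOC, the most abundant Jockey entry, was higher in each mutant library (25824 to 38855 against 41738 to 45712 CPM) but did not pass (log2 0.39, SE 0.21, adjusted p = 0.306 in edgeR).

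Among LTR elements called higher, MAX of the Pao family had the least spread between mutant libraries. MAX_LTR had 678, 541 and 631 CPM in piwi2/CyO and 1192, 1184 and 1189 in piwi2/piwi2 (log2 0.95, SE 0.13, edgeR adjusted p = 0.00451). MAX_I had 13610, 9723 and 10341 against 21289, 20337 and 20855 CPM (log2 0.89, SE 0.19, adjusted p = 0.0242 in edgeR). The mutant libraries lay close together in both entries and above every heterozygous one, although the MAX_I call stood only without piwi2/CyO replicate 1 or 2 (log2 from 0.77 to 1.05 over the omissions). ROOA_I, also of the Pao family, had 3256, 2424 and 2528 against 4521, 4447 and 4797 CPM (log2 0.75, SE 0.16, edgeR adjusted p = 0.0278) and was retained only without piwi2/CyO replicate 1. Copia1-I_DM, a lowly counted Copia relative, had 962, 997 and 1060 against 1376, 1499 and 1625 CPM (log2 0.58, SE 0.13, adjusted p = 0.0278 in edgeR) and was retained only without piwi2/piwi2 replicate 1. Neither overlapped between genotypes.

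Gypsy1-I_DM had 8273, 6279 and 9180 CPM against 19008, 13077 and 13058 (log2 0.93, SE 0.23, edgeR adjusted p = 0.0369). Gypsy6_LTR had 893, 563 and 935 against 2149, 1416 and 1350 CPM (log2 1.04, SE 0.25, adjusted p = 0.0368 in edgeR). These were the 2 higher entries of the Gypsy family, both with piwi2/piwi2 replicate 1 on top, and both calls were lost under each omission of a library (log2 from 0.72 to 1.05 and from 0.79 to 1.17). Copia_I, the internal region of the copia retrotransposon, was above the heterozygous range in each mutant library, with 64046, 37465 and 42486 against 72860, 81447 and 91144 CPM. Its log2 fold change of 0.77 (SE 0.25) missed the threshold (adjusted p = 0.101 in edgeR).

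The element 1731, a Copia-family retrotransposon, had the largest falls apart from that of the sparsely counted DMRPR. DM1731_I had 59578, 30816 and 40188 CPM in piwi2/CyO and 3820, 3651 and 4258 in piwi2/piwi2, an 11.1-fold lower level (log2 -3.48, SE 0.28, edgeR adjusted p = 3.55e-04). DM1731_LTR fell likewise from 2630, 1223 and 1468 to 174, 181 and 183 CPM, 9.86-fold lower (log2 -3.30, SE 0.29, adjusted p = 3.74e-04 in edgeR). Both calls held under each of the 16 alternatives, as only R2_DM did among the rest.

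**Figure D3:**
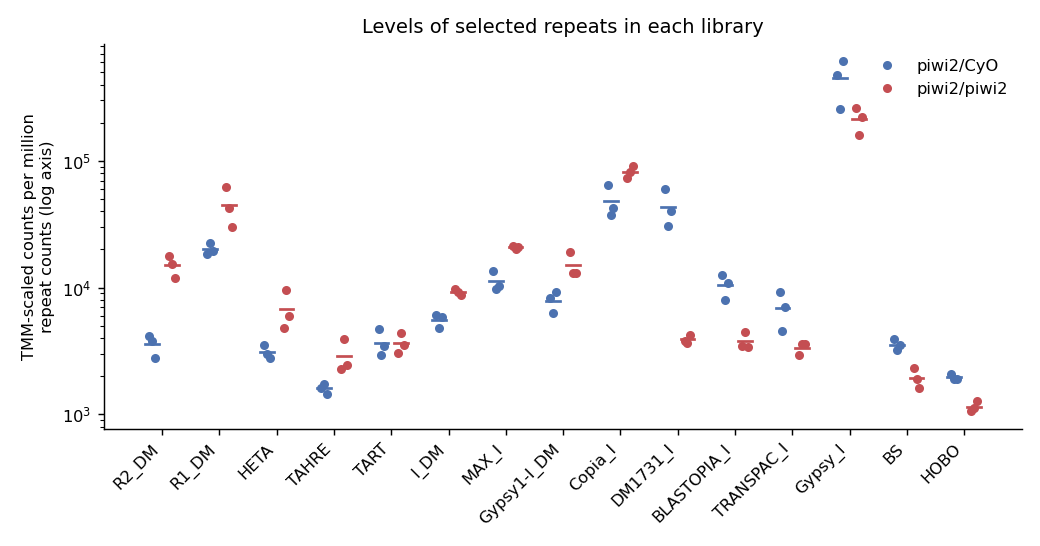
TMM-scaled counts per 1000000 repeat counts (log axis) of 15 repeats in each library of piwi2/CyO (blue) and piwi2/piwi2 (red), with a bar at the mean of 3 libraries. R2_DM and DM1731_I are the most widely separated in opposite directions, TART overlaps, and Gypsy_I shows the spread of both genotypes at the highest level.

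BLASTOPIA and TRANSPAC, Gypsy-family retrotransposons, were lower in both of their entries. BLASTOPIA_I had 12638, 7920 and 10861 CPM against 3458, 4484 and 3399 (log2 -1.47, SE 0.22, edgeR adjusted p = 0.00671), and BLASTOPIA_LTR had a log2 fold change of -1.25 (SE 0.26, adjusted p = 0.0242). TRANSPAC_I had 9189, 4566 and 6986 CPM against 2916, 3620 and 3565 (log2 -1.04, SE 0.26, adjusted p = 0.0369 in edgeR), and TRANSPAC_LTR had -1.25 (SE 0.23, adjusted p = 0.0132). All 4 entries were separated between genotypes. The call of BLASTOPIA_LTR was lost without piwi2/CyO replicate 3 or piwi2/piwi2 replicate 1 or 3, that of TRANSPAC_I was retained only without piwi2/CyO replicate 2, and that of TRANSPAC_LTR was lost without piwi2/piwi2 replicate 1.

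The remaining lower repeats changed less or rested on fewer counts. Gypsy10_I had 1096, 1044 and 973 CPM against 584, 651 and 565 (log2 -0.79, SE 0.12, edgeR adjusted p = 0.00765), with little spread in either genotype. HOBO, a DNA transposon of the hAT group and the only DNA transposon called by edgeR, had 2081, 1910 and 1897 against 1057, 1129 and 1265 CPM (log2 -0.77, SE 0.13, adjusted p = 0.0108), and was lost without piwi2/CyO replicate 3 or piwi2/piwi2 replicate 2. Gypsy2-LTR_DM had 368, 458 and 351 against 207, 261 and 215 CPM (log2 -0.78, SE 0.18, edgeR adjusted p = 0.0278), retained only without piwi2/CyO replicate 1. In DMRPR, a repeat of class Unknown, the raw counts were 360, 13 and 107 in piwi2/CyO and 10, 11 and 13 in piwi2/piwi2. Its log2 fold change of -4.60 (SE 1.15, adjusted p = 0.0372 in edgeR) rested on uneven heterozygous libraries, with most counts in piwi2/CyO replicate 1, and without piwi2/CyO replicate 3 or any piwi2/piwi2 library the call was lost (log2 from -5.16 to -2.67 over the omissions).

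The gypsy element, for all its weight in the total, was not called by edgeR's quasi-likelihood test, and its call depended on the test, the scaling and 1 library. Gypsy_I had 478109, 258749 and 608225 CPM in piwi2/CyO and 263064, 159089 and 220064 in piwi2/piwi2, and piwi2/piwi2 replicate 1 lay just above the lowest heterozygous library. The log2 fold change was -1.07 (SE 0.36, edgeR adjusted p = 0.112). Gypsy_LTR had 14679, 8485 and 22854 against 7875, 4923 and 7339 CPM, without overlap (log2 -1.19, SE 0.36, adjusted p = 0.0755 in edgeR). DESeq2, edgeR's likelihood ratio test, library size alone and scaling to all reads each called both entries lower, as did the fit without piwi2/CyO replicate 2 (log2 -1.38 and -1.53), and Gypsy_LTR alone was called with the tested entries limited to the LTR, LINE, DNA and RC classes.

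Elements were also grouped by where piRNAs are known to repress them in the ovary. Entries repressed by Piwi in ovarian somatic cells (gypsy, ZAM, Idefix, mdg1, 412, blood, 297, Gypsy5 and Tabor) had no calls among 18 in the edgeR test, with 11 above 0, 7 below and a median log2 fold change of 0.12 between extremes of -1.19 and 0.55. At an unadjusted p under 0.05 they had 1 higher and 2 lower, and DESeq2 called MDG1_LTR higher and Gypsy_I and Gypsy_LTR lower. The group listed as repressed in the germline held the telomeric elements, I, Burdock, MAX, DIVER, DMRT1A and DMRT1B. DIVER2, not itself listed, came in because entries were matched by the start of the name. The group had 5 called higher and none lower of 15 in edgeR, with 11 above 0, 4 below and a median of 0.19. Without the telomeric ones, 3 of 11 were called higher, with 9 above 0 and DMRT1A and DMRT1B below. These calls were I_DM and both entries of MAX, and both DIVER2 entries were above 0 without a call. DMRT1A and DMRT1B were added after their values were seen, since the list gave them as RT1A and RT1B, and without them the counts were 5 of 13 with 11 above 0. Over all 215 repeats the median was -0.01, with 11 higher and 12 lower. These groups were drawn up with earlier results of the same libraries known, and their counts are a description.

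Antisense small RNAs from 1 oxidized library per genotype give a second measure, with no replicate check. On the values normalized by the authors, all 11 higher repeats had less antisense signal in piwi2/piwi2 (median log2 ratio -2.49), and so had all 11 of the 12 lower repeats with enough reads (median -2.47). Of the 162 repeats not called that had a value, 157 were below 0 and the median was -2.25. The medians of these groups lay close together. DM1731_I, with the largest fall in transcripts after DMRPR, had a log2 ratio of -0.66, the smallest drop among the lower repeats, and HETA and TAHRE had -3.77 and -4.03. For R2_DM there were only 11 and 5 antisense reads.

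Internal and LTR entries of the same element were then compared. Names gave 61 pairs, of which 58 had both entries tested. The signs agreed in 43 pairs (74.1%), with 25 pairs above 0 and 18 below in both entries, while 11 had only the internal entry and 4 only the LTR entry above 0. Across the 58 pairs the log2 fold changes had a Pearson r of 0.85 and a Spearman rho of 0.64, and r was 0.72 for 57 pairs without 1731. Entries of a pair come from the same libraries and share scaling and depth, and reads can be assigned to either, so pairs are not independent points. With at least 1000 counts in the LTR entry, signs agreed in 26 of 29 pairs and the median absolute difference between entries was 0.14. With fewer counts, they agreed in 17 of 29 and that difference was 0.36.

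**Figure D4:**
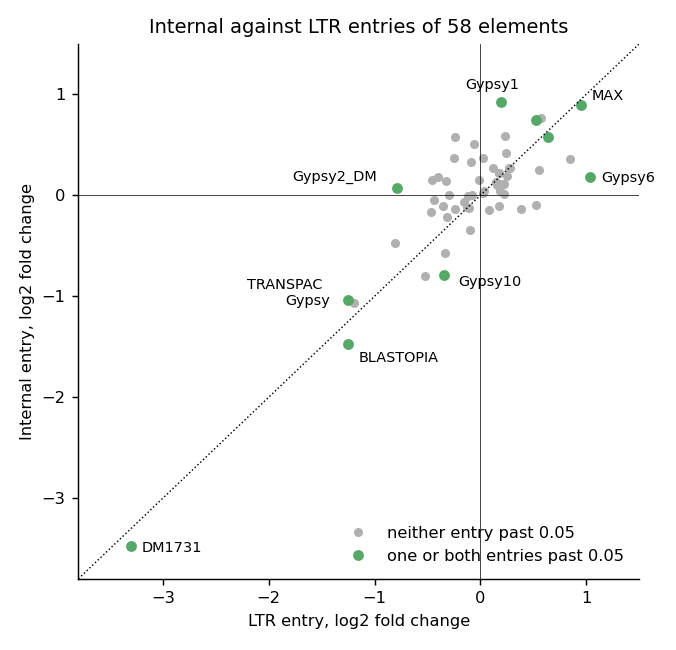
Log2 fold change of the internal entry (vertical axis) against that of the LTR entry (horizontal axis) for 58 elements, with the line of equality dotted. Green points are the 10 elements with at least 1 entry past the adjusted p of 0.05; DM1731, BLASTOPIA, TRANSPAC and MAX lie near the line, and Gypsy1, Gypsy2_DM and Gypsy6 lie away from it.

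Of the 10 pairs with a called entry, 4 had both called and in the same direction (MAX, DM1731, BLASTOPIA and TRANSPAC). The other 6 had 1 called entry, and the uncalled partner had the same sign in all but Gypsy2_DM. In MAX the ratio of internal to LTR counts was 20.1, 18.0 and 16.4 in piwi2/CyO and 17.9, 17.2 and 17.5 in piwi2/piwi2. In DM1731 it was 22.7, 25.2 and 27.4 against 21.9, 20.2 and 23.2. Both overlapped, and the log2 differences were -0.04 (SE 0.14) and -0.21 (SE 0.14). Overlap with 3 libraries per genotype cannot show that the entries moved equally. For gypsy itself the ratio was 32.6, 30.5 and 26.6 against 33.4, 32.3 and 30.0, again with overlap.

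Tested within libraries with limma, the ratio of internal to LTR counts passed in none of the 58 pairs (0%), with 9 at an unadjusted p under 0.05. Libraries did not overlap in 12 pairs (20.7%), 7 with a higher ratio in piwi2/piwi2 and 5 with a lower. Gypsy1 had 16.7, 18.6 and 21.1 internal counts per LTR count in piwi2/CyO and 30.9, 32.1 and 30.0 in piwi2/piwi2, a log2 difference of 0.73 (SE 0.14, limma adjusted p = 0.0548). Gypsy2_DM had 9.05, 6.82 and 8.91 against 17.2, 13.2 and 14.4, a log2 difference of 0.86 (SE 0.18, adjusted p = 0.0548 in limma). Every mutant library had the higher ratio in both. They lay just outside the threshold and were inside it with a pseudocount of 5 and with at least 100 counts in both entries.

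The partner entries differed between these elements. In Gypsy1 the internal entry was called and Gypsy1-LTR_DM was not (log2 0.20, SE 0.21). In Gypsy2_DM the LTR entry was lower while Gypsy2-I_DM had a log2 fold change of 0.07 (SE 0.14). Gypsy6 went the other way, with Gypsy6_LTR called and Gypsy6_I at 0.18 (SE 0.20). Its ratio was 1.43, 3.84 and 1.80 in piwi2/CyO and 0.977, 1.35 and 1.35 in piwi2/piwi2, a log2 difference of -0.83 (SE 0.36, limma adjusted p = 0.329) that depended on a high value in piwi2/CyO replicate 2. Gypsy10 had 4.94, 5.84 and 4.89 against 3.75, 4.52 and 3.28, without overlap (log2 -0.45, SE 0.17, adjusted p = 0.217 in limma).

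**Figure D5:**
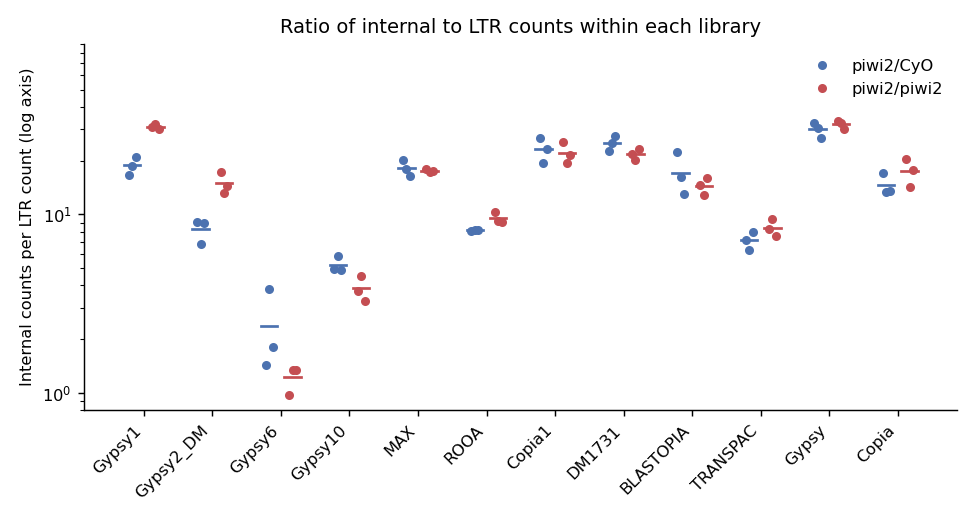
Internal counts per LTR count (log axis) in each library of piwi2/CyO (blue) and piwi2/piwi2 (red) for the 10 elements with a called entry and for Gypsy and Copia, with a bar at the mean of 3 libraries. The ratio is higher in all 3 mutant libraries for Gypsy1 and Gypsy2_DM and overlaps for MAX, DM1731, BLASTOPIA and TRANSPAC.

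On the scale of all counted reads, residual included, 20 of the 23 called repeats had libraries that did not overlap. The 23 were picked by a test on the same counts, and the share over all 215 repeats was not taken on this scale, so the count is a description. Tested by edgeR on this scale, only 6 of the 23 calls were retained. The called repeats whose libraries did overlap on this scale were R1_DM, TAHRE and Copia1-I_DM, and none of them kept its edgeR call there. HETA was at 138, 229 and 127 reads per 1000000 of all reads in piwi2/CyO and 290, 422 and 262 in piwi2/piwi2. TAHRE was at 63.0, 133 and 67.0 against 139, 172 and 108, and TART at 182, 224 and 158 against 184, 192 and 156. HETA thus stayed separated between genotypes on either scale, and TART on neither.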

How the data were processed

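RNA-seq reads of 6 fat body libraries were assigned by the authors to repeats with RepEnrich, and the deposited values are raw counts per repeat. RepEnrich also places reads that map to several repeats, so near-identical entries can share reads. The submitters' processing notes name the build dm3. The antisense small RNA tables hold raw counts and a signal normalized by the authors. The fold changes given by the authors were not used, and antisense ratios were computed from their normalized signal. Here, residual was left out of totals, repeats were kept with filterByExpr, TMM-scaled, and tested in edgeR 4.0.16 (quasi-likelihood, genotype as the only term, prior count 0.125). Family sums used the same factors. Ratios of internal to LTR counts (pseudocount 0.5) were tested with limma 3.58.1, and shares of at least 1% by 2-sided exact permutation. P-values were Benjamini-Hochberg adjusted. Antisense ratios needed 10 counts over both libraries. Work was done in R 4.3.3, with DESeq2 1.42.0 as an alternative, and figures in Python 3.11.15 with matplotlib 3.10.9. Steps were tested on simulated data. Repeats named were those called, their pair partners, the most abundant entry of each family, the top 5 and the lists, not all of them printed here. Members and lists were chosen with earlier results of these data known. P-values measure spread between pooled-fly libraries.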

Additional observations from a re-analysis of the deposited data

How the results depend on the processing

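Repeats called numbered 35 with DESeq2 (17 higher, 18 lower), 32 with edgeR's likelihood ratio test, 27 with library size alone (17 higher), 31 with upper quartile factors (19 higher), 8 with the residual reads in the library size (1 higher, 7 lower), and 7 to 25 with 1 library left out (2 to 11 higher, 5 to 15 lower). Filters on low counts and TMM without gypsy left it at 23. Family totals called numbered 8 with DESeq2 (5 higher, 3 lower), 1 with the residual reads (1 higher, 0 lower), and 2 to 4 with 1 library left out (1 to 2 higher, 1 to 2 lower). Pairs called numbered 2 with a pseudocount of 5 and 2 with at least 100 counts, and 0 with each library left out.

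No called repeat or family total changed sign where it had a value. TART reached 0.24 with library size alone, 0.11 with upper quartile factors and -0.21 to 0.19 with 1 library left out. The Copia total reached 0.22, 0.10 and -0.22 to 0.23 under the same settings. With the residual reads, Gypsy6_I was at -0.0049 and Gypsy2-I_DM at -0.027. With 1 library left out, Gypsy1-LTR_DM ranged from -0.0069 to 0.32, Gypsy2-I_DM from -0.0022 to 0.10 and the MAX difference between entries from -0.11 to 0.031. As a percentage of all reads, the differences in share (piwi2/piwi2 minus piwi2/CyO) were -0.0149 for DNA, -0.00564 for RC and its Helitron family and -0.0285 for Copia. Without gypsy they were -0.605 for DNA, -0.329 for RC and Helitron, -1.68 for Copia and -0.0286 for TcMar-Tc1, and the repeat share of all reads without gypsy differed by 0.176 percentage points. The causes were not tested.

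Deviations of same-numbered libraries from their genotype means had correlations of -0.06, 0.17 and -0.10, and those of differently numbered libraries ranged from -0.16 to 0.18. With 3 libraries per genotype, these values cannot decide whether the numbers pair samples, and the main test treated them as unpaired. With a replicate block, 4 repeats were called (2 higher, 2 lower), 7 family totals (4 higher, 3 lower) and 0 pairs, with TART at 0.00025 and the Copia total at 0.0057.

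With 3 libraries per genotype, 17 of the 23 calls were lost when some library was left out, and the shares could not reach a permutation p under 0.1.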
